A study of Mus musculus with 6 samples.

Results

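The transcripts described here are those of G-protein-coupled and chemosensory receptors, found by matching gene symbols to the name patterns of these receptor families in 2 deposited lists, one of transcripts higher and one of transcripts lower in the striatum of HuD-KO mice than in that of WT littermates. Of 1088 listed transcripts, 57 were taken, 39 of them listed lower (68.4%) and 18 listed higher, and 72.6% of all listed transcripts were listed lower. 1 more symbol matched, Olfr1330, but lies in the stretch of chromosome 4 around the disrupted gene and was left out. No symbol appeared on more than 1 row, so each receptor rests on 1 probe of 60 bases.

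HuD, encoded by Elavl4, is an RNA-binding protein of neurons. The HuD-KO animals were adult mice labelled HuD KO (Elalvl4-/-, as the labels spell the gene), with both copies of the gene disrupted, and the WT animals were their littermates. RNA of the adult striatum was hybridized to 1-colour arrays, 3 per genotype, and the age in weeks, the sex and the number of animals behind each array are not given in the sources used here. The Elavl4 probe read 10.8, 7.64 and 7.36 on HuD-KO arrays 1 to 3, below the background mark on all of them, and 241, 201 and 317 on WT arrays 1 to 3. WT was thus at least 15.5-fold higher, and the targeted gene matched the labels. None of 22 markers of striatal projection neurons stood in the 2 lists, and most probes outside the lists carry no gene name, so the labelled tissue could not be checked against its markers.

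These receptors span the membrane and pass a signal to G proteins inside the cell, which act on enzymes such as adenylate cyclase. Receptors for dopamine, adenosine, acetylcholine, opioids and several orphan receptors shape the output of the striatum. Olfactory receptors (Olfr) detect odorants and vomeronasal receptors of type 1 (Vmn1r) and type 2 (Vmn2r) detect pheromones and related cues, each in sensory neurons of the nose that choose one or few receptor genes from large families.

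Chemosensory receptors made up 44 of the 57 transcripts, with 29 olfactory receptors, 7 vomeronasal receptors of type 1 and 8 of type 2. The other 13 were 3 transmitter receptors (Adra1a, Adra1d and Htr5b), the peptide receptor Rxfp3, the prostaglandin receptor Ptger4 and 8 orphan, adhesion or Mas-related receptors. Vmn1r207-ps carries the suffix of a pseudogene in the authors' lists but is named Vmn1r207 in RefSeq. No taste, trace amine, dopamine, adenosine, muscarinic, metabotropic glutamate, opioid or Frizzled receptor stood among them. A list of 70 receptors of interest for the striatum was drawn up for this work, without a check that each is expressed there. Of these, 4 were in the deposited lists (Gpr52, Gpr34 and Adra1a higher, Htr5b lower), and the others have no named probe.

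Several of the receptors have probes that are close to each other in sequence. The sequences below are the probes of 3 such sets, from transcript models whose length is a multiple of 3 bases. Whether the models hold only coding sequence was not checked further. Capitals mark the bases that differ from the first probe of the set.
Olfr410: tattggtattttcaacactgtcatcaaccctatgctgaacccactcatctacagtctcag
Olfr402: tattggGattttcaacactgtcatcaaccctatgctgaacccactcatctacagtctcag
Olfr401: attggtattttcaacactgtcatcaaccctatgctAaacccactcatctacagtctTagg
Vmn1r206: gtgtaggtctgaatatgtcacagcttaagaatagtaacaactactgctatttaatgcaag
Vmn1r209: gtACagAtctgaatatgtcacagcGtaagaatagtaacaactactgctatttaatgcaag
Vmn2r86: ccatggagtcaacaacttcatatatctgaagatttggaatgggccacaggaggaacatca
Vmn2r87: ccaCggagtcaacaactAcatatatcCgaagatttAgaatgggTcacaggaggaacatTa
The Olfr402 probe differed from the Olfr410 probe by T7G alone, counted from 1 at the 5′ end of the Olfr410 probe. The Olfr401 probe lay 1 base further on and differed by G37A and C58T, so 57 of its 59 aligned bases matched. The probes of Vmn1r206 and Vmn1r209 shared 56 of 60 bases and those of Vmn2r86 and Vmn2r87 shared 54. The authors' lists name possible cross-matches for 6 of the 57 probes, among them Olfr410 with Olfr401 and Olfr402, and Vmn1r207-ps with Vmn1r206 and Vmn1r209. The probes of Olfr1098 and Olfr819 are marked as able to match Olfr1097 and Olfr247, which are in neither list.

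A second set shows long runs of purines (A and G), which stood in many probes of the lists. Capitals mark runs of at least 6 purines, and all 4 models have a length that is a multiple of 3 bases. The first 3 were listed lower in HuD-KO and the last was listed higher.
Olfr1500: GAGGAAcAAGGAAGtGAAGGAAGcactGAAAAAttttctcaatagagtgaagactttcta
Olfr1441: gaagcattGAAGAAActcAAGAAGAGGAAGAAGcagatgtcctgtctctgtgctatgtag
Olfr1098: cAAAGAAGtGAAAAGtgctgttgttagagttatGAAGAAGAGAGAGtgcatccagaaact
Olfr769: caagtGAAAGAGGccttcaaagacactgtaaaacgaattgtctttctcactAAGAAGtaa

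Values are given as scaled intensity, the background-subtracted signal brought to a common 75th percentile over the arrays, which preserves differences between arrays for 1 probe but does not compare 1 gene with another. A probe counts as above background where the scanner software marked it well above background. The receptors were chosen by this same comparison of HuD-KO with WT, so the differences are a description with no test. Over all 47857 probes tested, 4.33% were lower in HuD-KO by over 2-fold with an unadjusted limma p under 0.05, and 1.6% were higher. Of the 57 listed receptors, 38 of 39 listed lower and 13 of 18 listed higher passed that limit when the scanner files were processed anew. The groups did not overlap in all 57, against 49.8% of all probes tested, which the choice of members itself fixes. The median log2 difference (HuD-KO minus WT) was -1.69 over the 38 receptors listed lower that were tested and 1.27 over the 15 listed higher, beside -1.47 and 1.18 over all listed transcripts and 0.04 over all tested probes. Over the 26 and 10 receptors above background on all 6 arrays the medians were -1.67 and 1.32. With another background correction (normexp, offset 50) the medians were -0.80 and 0.43 and 16 of the 53 tested receptors passed the limit, all with the listed direction.

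Probes reached the background mark on all 6 arrays for 36 receptors, on all arrays of only 1 genotype for 17, and in neither genotype for 4 (Olfr640, Olfr836, Olfr1157 and Vmn2r87), which were not tested. Among chemosensory receptors 24 of 44 were above background on all 6 arrays, among the other receptors 12 of 13, and among the other listed transcripts 860 of 1031. The plot of all receptors by array sets out every difference.

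**Figure D1:**
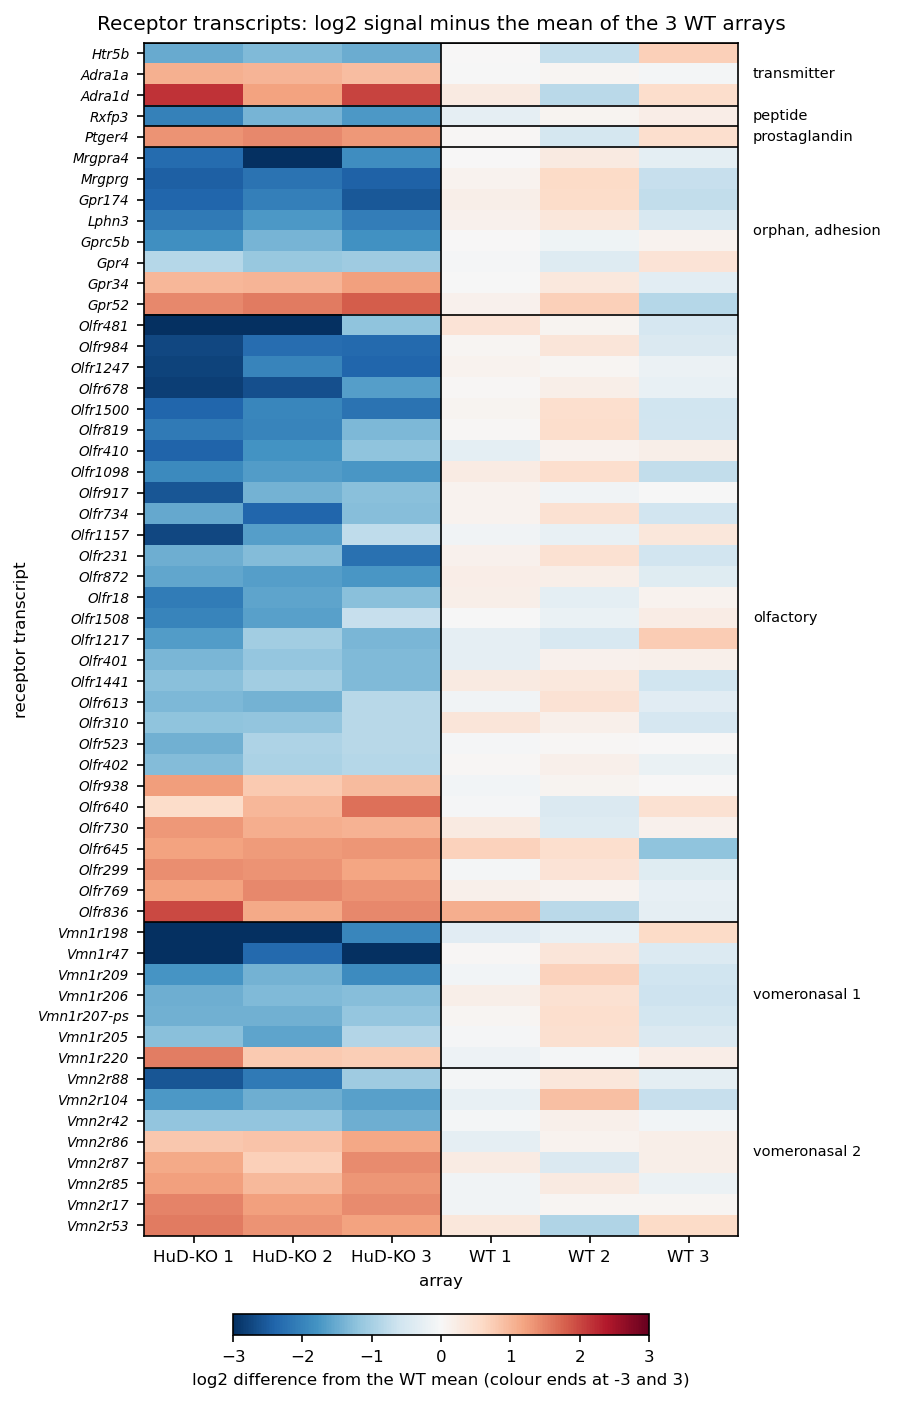
Log2 signal of the 57 listed receptors on each of the 6 arrays (columns), minus the mean of the 3 WT arrays of the same probe, grouped by receptor class (rows) and shown on a colour scale from blue (lower) to red (higher). The HuD-KO arrays are blue for 39 receptors and red for 18, and the WT arrays spread most among themselves in Olfr645, Olfr836 and Vmn2r104.

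Among receptors for transmitters, both alpha-1 adrenergic receptors in the lists were higher in HuD-KO and the serotonin receptor was lower. Adra1a, which responds to noradrenaline and couples to phospholipase C (chromosome 14, 66635341 to 66729984), read 3279, 3167 and 3007 on HuD-KO arrays 1 to 3 and 1563, 1642 and 1514 on WT arrays 1 to 3. The arrays within each genotype lay close together, with SDs of 0.06 and 0.06 on the log2 scale (n = 3 each), and HuD-KO was 2.003-fold higher. Adra1d, its relative (chromosome 2, 131545357 to 131562285), read 369, 189 and 335 in HuD-KO and 99.3, 47.0 and 118 in WT. Its 3.49-fold difference was the largest upward one of the 57 (log2 1.80, SD 0.52 in HuD-KO and 0.71 in WT). The second array was the lowest of its group in both genotypes, and this probe lies in a corner of the array where HuD-KO 2 was dim. Htr5b, a serotonin receptor (chromosome 1, 121509773 to 121528465), read 259, 295 and 262 in HuD-KO and 739, 445 and 1205 in WT. It was 2.71-fold lower (log2 -1.44), and its WT arrays spread far more (SD 0.72) than its HuD-KO arrays (SD 0.10).

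The peptide receptor Rxfp3, which binds the neuropeptide encoded by Rln3 (chromosome 15, 11033717 to 11037968), read 80.4, 124 and 99.3 in HuD-KO and 271, 350 and 377 in WT. It was thus 3.30-fold lower in HuD-KO (log2 -1.72, SD 0.31 in HuD-KO and 0.25 in WT). Ptger4, a receptor for prostaglandin E that raises cyclic AMP (chromosome 15, 5233404 to 5243682), read 676, 729 and 657 in HuD-KO and 272, 186 and 377 in WT. It was 2.57-fold higher (log2 1.36), with SDs of 0.08 and 0.51.

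Of the 8 orphan, adhesion and Mas-related receptors, 6 were listed lower and 2 higher. Gpr52, an orphan receptor that raises cyclic AMP and is enriched in striatal projection neurons (chromosome 1, 160576668 to 160577753), read 107, 118 and 140 in HuD-KO and 43.3, 65.4 and 21.9 in WT. The lowest HuD-KO array was above the highest WT array, the difference was 3.05-fold (log2 1.61) and WT 3 was the lowest of all (SD 0.19 in HuD-KO and 0.80 in WT). Gpr34, a receptor for lysophosphatidylserine that is known from microglia (chromosome X, 13632769 to 13640858), read 67.4, 68.2 and 79.2 in HuD-KO and 33.4, 42.1 and 27.2 in WT, a difference of 2.12-fold upward. Of 19 markers of microglia and immune cells only Gpr34 itself and Tlr7 were in the lists, and Tlr7 was lower in HuD-KO (log2 -3.58), so the listed markers did not move one way.

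The largest falls of this class were in Mas-related receptors and Gpr174. Mrgprg, a Mas-related receptor of the family known from sensory neurons and immune cells (chromosome 7, 143763710 to 143766993), read 5354, 6255 and 5430 in HuD-KO and 31601, 43682 and 18056 in WT. It was 5.16-fold lower (log2 -2.37, SD 0.12 in HuD-KO and 0.64 in WT). Gpr174, a receptor for lysophosphatidylserine of lymphocytes (chromosome X, 107255878 to 107296769), read 1082, 1367 and 960 in HuD-KO and 6361, 8308 and 3371 in WT, which is 5.01-fold lower (SD 0.26 and 0.67). In both receptors WT 2 was the highest and WT 3 the lowest WT array. Mrgpra4 read 46.1, 54.4 and 37.4 in WT and was not above background on any HuD-KO array, so that WT was at least 2.83-fold higher.

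Lphn3, now called Adgrl3, an adhesion receptor of synapses that binds teneurins and FLRT proteins (chromosome 5, 81021593 to 81795730), read 54.2, 70.9 and 55.5 in HuD-KO and 258, 298 and 170 in WT. It was 3.94-fold lower (log2 -1.98, SD 0.21 in HuD-KO and 0.42 in WT). Gprc5b, an orphan receptor of the class of metabotropic glutamate receptors (chromosome 7, 118972040 to 118995211), read 553, 747 and 560 in HuD-KO and 1983, 1812 and 2129 in WT. It was 3.21-fold lower (log2 -1.68), with SDs of 0.25 in HuD-KO and 0.12 in WT. Gpr4, a proton-sensing receptor of endothelium, was the member closest to the limit in the lower list: in the authors' log2 values it was 2.002-fold lower, and here 2.03-fold.

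**Figure D2:**
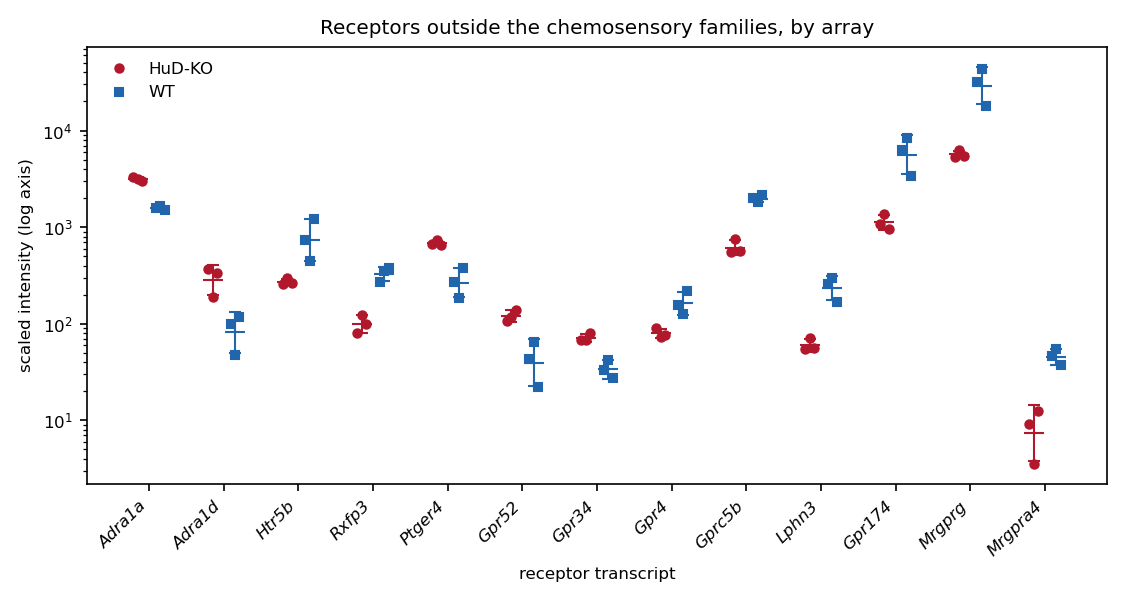
Scaled intensity (log axis) of the 13 receptors outside the chemosensory families on each array, with HuD-KO as red circles and WT as blue squares. Bars are the mean and SD of the log2 values of 3 arrays. In each receptor the HuD-KO and WT arrays do not overlap, with 5 receptors higher and 8 lower in HuD-KO, and the widest spread among WT arrays is in Gpr52, Htr5b and Adra1d.

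Of 29 olfactory receptors 22 were listed lower and 7 higher, in lists where 72.6% of all transcripts were lower. Olfr984, whose model lies on chromosome 9 (40100544 to 40101488), read 36.8, 50.01 and 48.2 in HuD-KO and 254, 316 and 180 in WT. It had the largest difference among olfactory receptors measured on all 6 arrays, 5.46-fold lower (log2 -2.45, SD 0.24 in HuD-KO and 0.41 in WT). Olfr1247 read 21.9, 37.8 and 28.9 in HuD-KO and 162, 156 and 132 in WT (5.19-fold lower), and Olfr678 read 17.7, 20.4 and 40.4 against 130, 142 and 109 (5.16-fold lower). Olfr1500, one of the purine-rich probes printed above, read 537, 719 and 607 in HuD-KO and 2979, 3964 and 1850 in WT, which is 4.53-fold lower. WT 2 was its highest array and WT 3 the lowest of its WT arrays, as in Mrgprg and Gpr174. Of the 5 olfactory receptors above background on every array of 1 genotype and on none of the other, the highest bounds were those of Olfr1217 (WT 29.1, 25.1 and 59.1, at least 2.19-fold higher than HuD-KO) and Olfr231 (WT 31.6, 39.8 and 19.3, at least 1.80-fold higher).

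The other 16 olfactory receptors listed lower, namely Olfr18, Olfr310, Olfr401, Olfr402, Olfr410, Olfr481, Olfr523, Olfr613, Olfr734, Olfr819, Olfr872, Olfr917, Olfr1098, Olfr1157, Olfr1441 and Olfr1508, included 10 above background on all 6 arrays, with log2 differences from -1.83 (Olfr819) to -1.04 (Olfr402). Olfr310, Olfr481, Olfr734, Olfr872, Olfr917 and Olfr1157 were not above background on every HuD-KO array, so no exact difference can be read for them. The probes of Olfr734 and Olfr1508 lie in the corner of the array where HuD-KO 2 was dim. Olfr310 was just past the limit of the lower list in the authors' values, at 2.003-fold. In the higher list the members closest to the limit were Vmn2r86 (2.01-fold) and Adra1a (2.04-fold), and transcripts just outside the limit are not named in the lists. The 7 listed higher were Olfr299, Olfr640, Olfr645, Olfr730, Olfr769, Olfr836 and Olfr938. Of these only Olfr299, with 169, 164 and 147 in HuD-KO against 62.1, 85.5 and 49.7 in WT, and Olfr769, with 76.8, 91.0 and 84.8 against 36.9, 35.7 and 28.4, were above background on all 6 arrays. Olfr299 was 2.49-fold and Olfr769 2.51-fold higher, and Olfr938, above background on 1 WT array, read 42.4, 30.96 and 34.4 in HuD-KO and 17.0, 18.8 and 17.9 in WT. None of 18 markers of olfactory sensory neurons, among them Omp, Adcy3 and Cnga2, stood in the lists, so their levels are not known here.

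Vomeronasal receptors of type 1 were lower in 6 of 7 cases and those of type 2 higher in 5 of 8, in lists where 72.6% of all transcripts were lower. The probes of Vmn1r206, Vmn1r207-ps and Vmn1r209 can share targets, as can those of Vmn2r86 and Vmn2r87. The counts are therefore not of independent cases, and no difference between the types was tested. Vmn1r206 (chromosome 13, 22620097 to 22621035) read 44.6, 48.9 and 51.0 in HuD-KO and 139, 169 and 80.1 in WT, 2.57-fold lower. Vmn1r207-ps read 27.9, 27.8 and 33.96 against 78.6, 107 and 51.8 (2.55-fold lower), and Vmn1r205 read 37.9, 30.5 and 49.4 against 88.7, 126 and 66.7 (2.36-fold lower). The WT arrays took the same order in all 3 of these neighbours, with WT 2 highest and WT 3 lowest. The Vmn1r207-ps probe can match Vmn1r206, so these are not 3 independent measurements. The Vmn1r205 probe lies in the corner where HuD-KO 2 was dim. Vmn1r47 read 26.2, 33.1 and 19.2 in WT and was not above background in HuD-KO, a fall of at least 1.59-fold. Vmn1r198 (WT 48.0, 52.01 and 91.7) and Vmn1r209 were above background on all WT arrays but on 1 HuD-KO array only, so neither an exact difference nor a bound is given for them. Vmn1r220 was the 1 receptor of the type that was higher, with 196, 117 and 113 in HuD-KO against 61.2, 65.5 and 78.0 in WT (2.02-fold).

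Among type 2 receptors Vmn2r88 had the largest difference, with 27.4, 37.5 and 77.7 in HuD-KO against 157, 206 and 134 in WT (3.79-fold lower). Its HuD-KO arrays spread more (SD 0.77) than its WT arrays (SD 0.31). Vmn2r42 was lower too, with 51.8, 51.3 and 42.2 against 112, 129.3 and 111 (2.43-fold), and Vmn2r104, above background on 2 of 3 HuD-KO arrays, read 15.5, 18.3 and 16.5 in HuD-KO and 43.8, 95.6 and 31.5 in WT. Vmn2r17 was higher, with 70.3, 59.1 and 67.4 in HuD-KO and 23.4, 26.1 and 26.3 in WT (2.60-fold). Vmn2r85 and Vmn2r53 were above background in HuD-KO alone, with 32.5, 27.1 and 34.5 (at least 1.78-fold higher than WT) and 26.6, 23.1 and 21.0 (at least 1.34-fold higher).

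Receptors whose probes can share targets moved the same way. Olfr401, Olfr402 and Olfr410 lie within 214 kb of chromosome 11 and were 2.44-, 2.05- and 3.50-fold lower in HuD-KO. Olfr401 read 64.8, 75.4 and 67.3 in HuD-KO and 141, 183 and 186 in WT. Olfr402 read 74.2, 94.1 and 101 against 188, 204 and 159, and Olfr410 read 31.6, 47.9 and 72.0 against 137, 180 and 190. HuD-KO 1 was the lowest array for all 3 probes, whose sequences differ by the few capitals printed above, so these are not 3 independent measurements. In Vmn1r209, whose probe differs from that of Vmn1r206 by 4 bases, the values were 14.2, 18.2 and 13.2 in HuD-KO and 46.1, 78.5 and 32.2 in WT. Vmn2r86 read 39.0, 39.99 and 49.8 in HuD-KO and 18.3, 23.8 and 25.0 in WT (1.92-fold higher), and Vmn2r87 read 21.0, 15.6 and 25.8 against 11.4, 7.07 and 10.9. Without the 10 receptors with such probes, 43 of the 44 others that were tested passed the limit. The lists were made at a like limit, so this count is largely set by the choice of receptors.

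**Figure D3:**
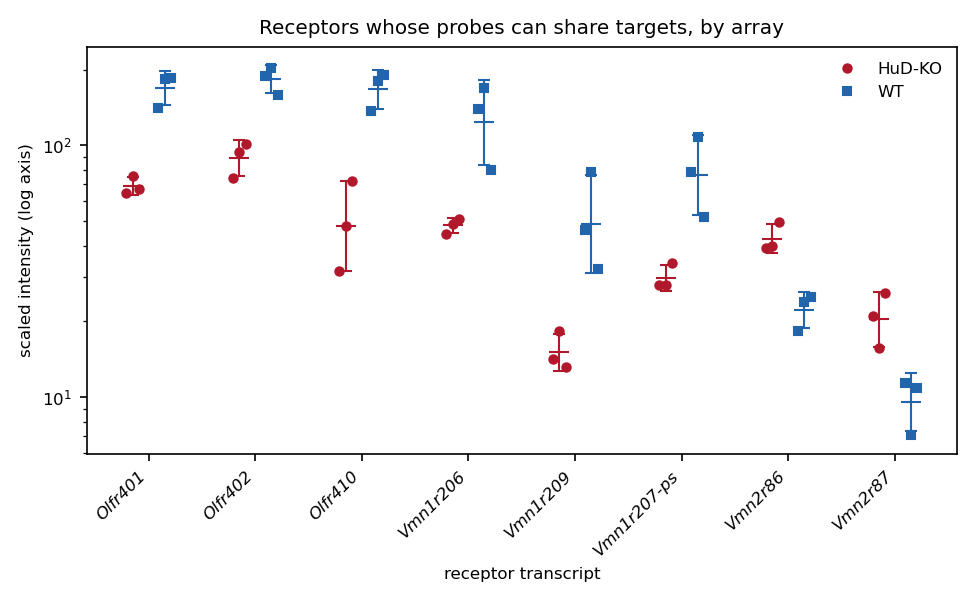
Scaled intensity (log axis) on each array of 8 receptors whose probes can share targets, with HuD-KO as red circles and WT as blue squares, and bars for the mean and SD of the log2 values of 3 arrays. The probes of each related set fall on the same side: the 6 of Olfr401, Olfr402, Olfr410, Vmn1r206, Vmn1r209 and Vmn1r207-ps are lower in HuD-KO and the 2 of Vmn2r86 and Vmn2r87 are higher.

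The receptors lay on 14 chromosomes, 14 of them on chromosome 7. With members within 500 kb of each other joined, 24 fell into 8 groups and 33 stood alone. Only 2 of the groups held 1 direction (Olfr401, Olfr402 and Olfr410 on chromosome 11, and Olfr872 and Olfr18 on chromosome 9), and the other 6 held both. On chromosome 14, for example, Olfr734 was lower and Olfr730, within 135 kb, was higher. On chromosome 10, Olfr819 was lower while its neighbours Vmn2r85, Vmn2r86 and Vmn2r87 were higher. Of the 6 members in 830 kb of chromosome 13, Vmn1r198, Vmn1r205, Vmn1r206, Vmn1r207-ps and Vmn1r209 were lower and Vmn1r220 was higher.

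The share of purines in the probe is a feature that the choice of receptors did not use. Over the other listed transcripts, 55.1% of the 751 probes listed lower held at least 60% purines, against 17.1% of the 280 listed higher. Among the receptors the shares were 18 of 39 listed lower and 5 of 18 listed higher, with the same median, 56.7% of bases, in both directions. In olfactory receptors alone, 13 of 22 probes listed lower and 2 of 7 listed higher held at least 60%. The letters GAAG, read on the probe strand only, stood in 12 of 22 olfactory probes listed lower and in 6 of 7 listed higher, and in 54.1% and 30.4% of the other listed probes of each direction. Among receptors listed lower, the median log2 difference was -1.74 in the 18 purine-rich probes and -1.65 in the 21 others. The part of base composition in the differences was not tested.

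**Figure D4:**
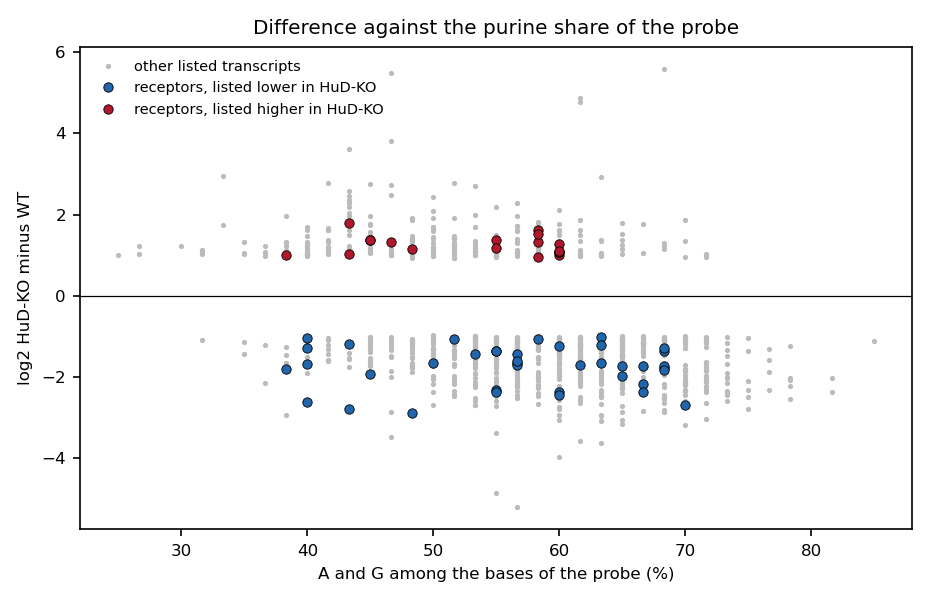
Log2 difference between HuD-KO and WT (vertical axis) against the percent of A and G among the 60 bases of the probe (horizontal axis) for all listed transcripts, with receptors listed lower in blue, receptors listed higher in red and other transcripts in grey. Receptors listed higher reach 60% at most, receptors listed lower reach 70%, and the gap around 0 is set by the 2-fold limit of the lists.

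The order of the 3 WT arrays was not used in listing a transcript either. WT 2 was highest and WT 3 lowest among them in 22 of 39 receptors listed lower (56.4%), among them Mrgprg, Gpr174, Lphn3, Mrgpra4, Olfr984, Olfr1098 and Olfr1500. The same order was found in 45.7% of the other transcripts listed lower, in 26.4% of all tested probes and in 5 of 18 receptors listed higher. The SD among WT arrays was 0.41 (log2 scale, median over receptors listed lower) and that among HuD-KO arrays 0.31. Over the other transcripts listed lower the medians were 0.35 and 0.19, and over all tested probes 0.16 and 0.11. A wide spread among WT arrays was thus not particular to the receptors. The receptors include some that share probes and all rest on a common WT group, so no test was made.

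Of the signalling partners of these receptors, few were in the lists, and each is given with its own difference. Among 63 G-protein subunits, cyclases, phospholipases, phosphodiesterases and kinases, 4 were listed. They were Pde4b (log2 -2.28) and Pde1c (1.08), which degrade cyclic nucleotides, the gamma subunit Gng8 (-1.51) and Gnas (-1.55). The Gnas gene encodes the subunit that stimulates adenylate cyclase. The value of Gnas is that of 1 listed transcript of 3775 bases, and which protein that transcript encodes was not checked. Other transcripts of the gene have no value here. Pde4b lies in the stretch of chromosome 4 around Elavl4 that was left out for receptors. Of 41 regulators, Rgs20 (-1.81) and Rgs3 (-1.45), which speed the switching off of G proteins, and the scaffold Homer3 (-1.13) were lower. Of 56 peptide ligands, 5 were higher and 2 lower. Oxt (log2 2.94), encoding oxytocin, Grp (2.43), encoding gastrin-releasing peptide, and Cck (1.57), encoding cholecystokinin, were higher, and Edn1 (-2.08), encoding an endothelin, was lower. Of 40 genes of Wnt ligands and the Frizzled pathway, Wnt10a (1.28) was higher and Lef1 (-1.12) lower, and Sfrp4, not above background in HuD-KO, was at least 2.01-fold higher in WT. The probes of Gng8, Rgs3 and Lef1 lie in the corner of the array where HuD-KO 2 was dim.

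Some markers of other tissue differed between the genotypes. Of 22 markers of choroid plexus and ependyma, 10 were listed, all lower in HuD-KO. The scaled signal summed over their 12 probes was 55677 to 90260 in HuD-KO and 140380 to 199960 in WT. Most of that sum came from 1 probe of Enpp2, which read 45644 to 78038 in HuD-KO and 115630 to 157300 in WT. The sum therefore does not stand for the 10 genes alike. That Enpp2 probe lies in the corner where HuD-KO 2 was dim, but HuD-KO 2 was its brightest HuD-KO array, at 78038. Of 18 markers of cortical and hippocampal neurons, 4 were listed higher and 1 lower, and their summed signal overlapped between the genotypes, at 44730 to 51268 in HuD-KO and 44715 to 48367 in WT. Of 5 sex-linked transcripts, 4 were listed, all of the Y chromosome and all higher in HuD-KO. Xist was in neither list and has no value here. The summed signals of the 4 were 3742 to 4046 in HuD-KO against 116 to 133 in WT. A difference in sex and the difference in genotype thus cannot be told apart in any receptor, those of the X chromosome (Gpr34, Gpr174) included. The part of these tissues in the differences of the receptors was not tested. In such samples fewer cells of a type and less RNA per cell cannot be told apart.

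The arrays lay on 1 slide, the HuD-KO arrays and WT 1 in its first row and WT 2 and WT 3 in the second. Within the first row, the median log2 difference (mean of HuD-KO minus WT 1) was -1.69 over the receptors listed lower and 1.14 over those listed higher. Its direction is set by the choice of receptors whose groups do not overlap, so it does not bear on the slide row, whose part was not tested. With the row as a block, 45 of the 53 tested receptors passed the limit. The 75th percentile of the signal was 446 to 615 and 77.8% to 81.99% of target spots were above background. The precision is limited by the number of arrays, 3 per genotype, and nothing in the labels says whether the RNA of an array came from 1 animal.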

How the data were processed

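Adult striatal RNA of 3 HuD-KO and 3 WT samples was depleted of ribosomal RNA, amplified with oligo(dT) and random primers, labelled with Cy3 and hybridized to 1-colour arrays of long non-coding and messenger RNAs. Each deposited scanner file gives 1 array's spot intensities, and the signal used here, per the file headers, was background-subtracted and detrended with no scaling between arrays. The authors' 2 deposited tables give, for the transcripts past 2-fold and p under 0.05, raw intensity and log2 normalized values per array (raw values equalled the scanner values with a floor of 5 in 100% of 6528 cases, within 0.1%), and also their own fold ratios, p-values and FDR, which were not used. The normalization behind their log2 values is not given in the sources used here, although limma is among the tools in the submitters' processing notes.

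The log2 processed signal minus the 75th percentile of each array was used. Spots marked as outliers were left out, spots of 1 probe were averaged, and probes above background on all 3 arrays of at least 1 genotype were tested (47857) with limma 3.58.1 in R 4.3.3, two-sided, without a replicate block. The fit was tested on simulated data. Python 3.11.15 with pandas 2.3.3 was used for the tables. Scaled intensity is the scaled value multiplied by 514, the geometric mean of the 75th percentiles. Where 1 genotype was above background on all arrays and the other on none, the difference is a bound: the brighter mean against, per array of the other, the higher of the lowest signal above background and the probe's own. The dimmest values are substitutes set by the scanner software.

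Receptors were found by symbol patterns. The members and the gene lists were chosen with earlier results of these data known. Values on every array are printed for receptors of the striatal list and, in each class, for the 4 largest differences on all 6 arrays and the 2 highest bounds, as well as for the probes that can share targets and for Olfr299 and Olfr769, chosen after their values were seen. Of the other lists at most 4 genes were named, with Tlr7. Coordinates are those of the authors' tables, whose build is not named. All 57 receptors overlapped their RefSeq gene in GRCm38.p6, and 50 shared its start or end. The alternatives were another percentile, quantile normalization, normexp with an offset of 50, other filters, a floor of 5, the methods' t-test, blocks for replicate number and slide row, the authors' log2 values and leaving out each array. Leaving out a dim corner of HuD-KO 2 (columns 1 to 40 from row 129 on) or the probes that can share targets was added after the data were seen. The replicate numbers did not pair the arrays, with correlations of deviations from -0.13 to -0.03.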

Additional observations from a re-analysis of the deposited data

How the results depend on the processing

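All receptors with a value kept the direction of their list under every alternative run. The receptors were chosen by this same comparison and their groups did not overlap, so the kept direction is largely set by that choice. With normexp background correction and an offset of 50, the count of receptors past 2-fold fell from 51 to 16, the medians moved to -0.80 for those listed lower and 0.43 for those listed higher, and over all tested probes 1057 were lower and 323 higher instead of 2072 and 765. The cause was not tested. Of the values of the 29 receptors printed by rule, 24 of 511 moved by more than the SD between arrays, 21 of them with normexp. Under the other alternatives the count of receptors past the limit was 35 to 57. The lowest was with the filter on all 6 arrays, which leaves 36, and the highest with the authors' log2 values, on which the lists were made. Leaving out each array in turn gave 46 to 51 receptors, medians of -1.79 to -1.58 and 1.13 to 1.29, and 2025 to 2399 probes lower and 696 to 983 higher.

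With the replicate number as a block the count stayed at 51 receptors with the same medians (-1.69 and 1.27), and 2050 probes were lower and 763 higher over all probes. The numbers do not pair the arrays. With the slide row as a block 45 receptors passed the limit. Dim signals limit the chemosensory receptors most, since 20 of 44 had at least 1 array under the background mark.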

Other observations

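Olfr1330, the olfactory receptor left out for its place on chromosome 4 near Elavl4 (118893085 to 118894032), read 3.22, 3.53 and 22.03 on HuD-KO arrays 1 to 3 and 50.1, 58.9 and 31.2 on WT arrays 1 to 3. It was above background on 1 HuD-KO array and on all 3 WT arrays, and its groups did not overlap.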
